A study of Mus musculus with 6 samples.

Results

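Acute phase genes and the genes of the inter-alpha-trypsin inhibitor heavy chains were followed in the livers of Pcyt2+/- and wild type mice. The genes were Itih1, Itih2, Itih3, Itih4, Orm1, Orm2, Saa1, Saa4, Lcn2 and Apcs, taken by symbol from the rows of the array table that name 1 gene. A row of that kind was found for 9 of the 10 genes, out of 18820 genes in all, and Saa1 had none and was not analysed here. Each of the 9 was measured by 1 probe set. The Pcyt2+/- group held 4 mice of 2 months of age, numbered 1 to 4, and the wild type group held 2 mice of the same age, numbered 3 and 4. All 6 were on the C57BL6 background, each mouse gave 1 liver and 1 array, and no treatment was given in the labels. The sample titles call the first group knock-out, whereas the genotype field gives Pcyt2+/-, that is, mice with 1 altered copy of the gene, and no tissue-specific deletion was named. Pcyt2 encodes the enzyme that makes CDP-ethanolamine for phosphatidylethanolamine synthesis. The sources used here give neither sex nor feeding state. Values are log2 signals, and differences are Pcyt2+/- minus wild type.

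Acute phase proteins are plasma proteins, made mostly by hepatocytes, whose blood level shifts during infection, injury or inflammation. Interleukin-6 acting through STAT3, and interleukin-1 acting through NF-kB and C/EBP factors, are the textbook signals for their genes. The inter-alpha-trypsin inhibitor heavy chains are secreted by the liver, and several of them are joined through chondroitin sulfate to bikunin, the protease inhibitor encoded by Ambp, and can be passed on to hyaluronan in the matrix. ITIH4 is the heavy chain that circulates without bikunin and is itself an acute phase protein.

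Itih4, Itih3 and Itih1 follow each other on mouse chromosome 14 in the RefSeq gene order, while Itih2 stands beside Itih5 on chromosome 2. The 250 bases before the RefSeq start of these heavy chain genes are shown because Itih4, the gene with the largest difference of the set, has Itih3 as its next neighbour, which had a difference near 0. The windows are chr14:30886226-30886475 (plus strand), chr14:30923588-30923837 (minus strand), chr14:30943290-30943539 (minus strand) and chr2:10130684-10130933 (minus strand) in GRCm38.p6, read 5′ to 3′ on the strand of the gene. Capitals mark matches, on either strand, to the motifs searched: TTCNNNGAA for STAT factors, TTNNGNAA for C/EBP factors, CTGGGA for the interleukin-6 response element and GTTAAT for an HNF1 half-site.
Itih4: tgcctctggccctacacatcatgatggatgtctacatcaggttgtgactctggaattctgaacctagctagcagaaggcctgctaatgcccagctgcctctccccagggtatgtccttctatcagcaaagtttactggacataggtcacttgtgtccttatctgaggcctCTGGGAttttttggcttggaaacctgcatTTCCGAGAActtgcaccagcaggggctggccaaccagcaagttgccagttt
Itih3: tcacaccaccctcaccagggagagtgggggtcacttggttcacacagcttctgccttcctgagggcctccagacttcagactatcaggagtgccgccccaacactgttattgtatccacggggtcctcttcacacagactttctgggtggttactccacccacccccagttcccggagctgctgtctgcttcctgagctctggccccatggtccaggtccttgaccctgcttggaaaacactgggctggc
Itih1: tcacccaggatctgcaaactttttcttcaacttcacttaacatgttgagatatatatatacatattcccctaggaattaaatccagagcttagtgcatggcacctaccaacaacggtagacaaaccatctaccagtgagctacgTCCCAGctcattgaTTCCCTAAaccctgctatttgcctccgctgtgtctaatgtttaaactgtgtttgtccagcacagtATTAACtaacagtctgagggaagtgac
Itih2: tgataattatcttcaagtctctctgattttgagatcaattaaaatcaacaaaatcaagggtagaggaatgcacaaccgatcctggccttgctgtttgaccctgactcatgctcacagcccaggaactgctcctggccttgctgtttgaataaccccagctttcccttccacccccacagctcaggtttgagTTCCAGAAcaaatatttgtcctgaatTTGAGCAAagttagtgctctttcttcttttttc

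In the Itih4 window a STAT match, TTCCGAGAA, began 51 bases before the start and an interleukin-6 element match began 80 bases before it. The Itih3 window held no match to any of the 4 motifs. The Itih1 window held 1 match each to the C/EBP, interleukin-6 element and HNF1 half-site motifs, and the Itih2 window held 2 to the C/EBP motif. No matches overlapped one another in these windows. Of 27025 promoters of the same length, 7.18% held the STAT motif, 36.9% the C/EBP motif, 26.8% the interleukin-6 element and 6.52% the HNF1 half-site. A match is a description of the letters only. Of the 10 genes, 9 had a promoter in the RefSeq table, all but Orm1, and beside Itih4 the 1 with a STAT match was Apcs.

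Across the array, Pearson r between pairs of arrays ran from 0.989 to 0.996 over genes, which are not independent of one another. Most genes lay in a narrow band near the array median of 4.40, and 792 of 18820 had a mean above 5, where 6 of the 9 genes stood. Pcyt2 itself was lower on all 4 Pcyt2+/- arrays (4.604 to 4.669) than on both wild type arrays (4.796 and 4.887), with an adjusted p of 0.264 by limma and a two-sided exact permutation p of 0.0667, the smallest that the 15 splits allow. Of the hepatocyte markers, 7 of 7 measured had a mean above 5, with Alb at 12.29, and their mean log2 signal was lower in the Pcyt2+/- mice, 9.73 to 9.87, than in the wild type mice, 10.12 and 10.13. Their summed linear signal was 11600 to 12500 in Pcyt2+/- and 12300 to 13500 in wild type. Tat, an enzyme of tyrosine breakdown, and Cps1, of the urea cycle, named after their values were seen, had differences of -1.13 and -0.56. They were the 2 of the 7 with an unadjusted p under 0.05, against 5.3% of all genes. Of the 792 genes with a mean above 5, 116 were lower and 44 higher at that unadjusted p. The other 5 markers differed by -0.25 to -0.036. Cps1 came to -0.37 without wild type mouse 4. The part of these markers in the results was not tested. Of 47 measured markers of Kupffer cells, neutrophils, lymphocytes, stellate cells, sinusoidal endothelium, cholangiocytes and erythroid cells, 1 had a mean above 5, and none of the 47 differed between the groups by more than 0.0664.

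Itih4 had the largest difference of the 9 genes, with a signal 1.19-fold higher in Pcyt2+/- liver, followed by Orm1, which was 1.13-fold higher. Itih2 and Saa4 were each 1.08-fold higher, and the other 5 genes differed by 1.04-fold or less in either direction. No gene of the set met the threshold. Limma called 0 of the 9 at an adjusted p under 0.05 (adjusted p from 0.662 to 0.996), where it called 0 of 18820 genes, or 0.0%. At an unadjusted p under 0.05 there was 1 of the 9, Itih4, higher in Pcyt2+/-, against 998 of all genes (5.3%) in either direction and 1.86% in that direction. Among the 792 genes with a mean above 5, as Itih4 has, 44 were higher and 116 lower at that unadjusted p. The limma test with a trended and robust prior called 9 genes in all and none of the 9 described here. By group means 7 of the 9 were higher in Pcyt2+/-, against 48.1% of all genes. The count was 8 of 9 after quantile normalization, 6 of 9 without wild type mouse 4, 4 of 6 with the dim genes left out and 5 of 7 with the array median subtracted on the linear scale. With the dim genes left out, 37.6% of the 792 genes were higher. The median difference of the 9 was 0.022, against -0.00073 over all genes. Among those with a mean above 5 the median was 0.11 over 6 genes, against -0.020 over the 792 genes of that brightness.

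**Figure D1:**
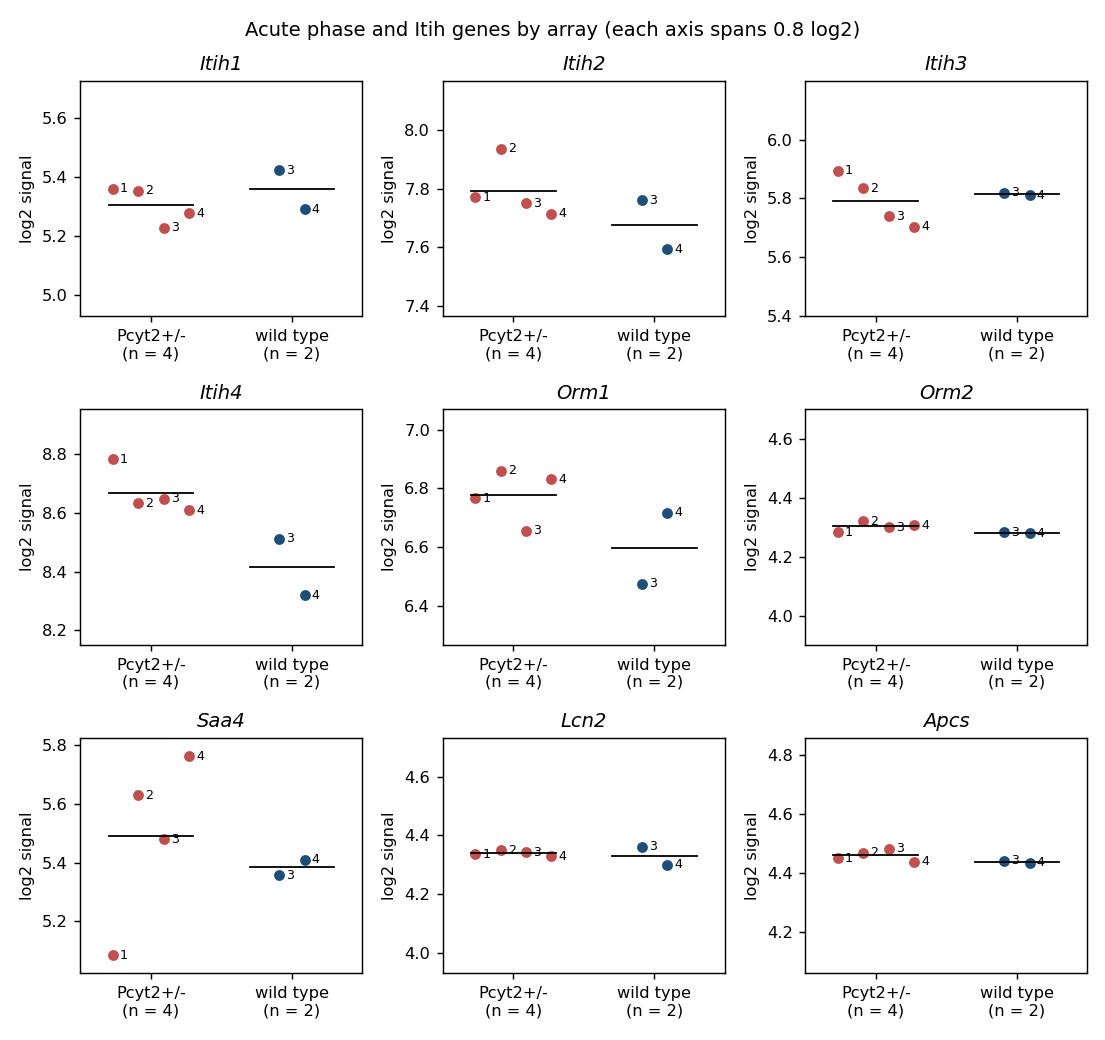
Log2 signal of each gene on each array, with the replicate number beside each point and the group mean as a line; each vertical axis spans 0.8 on the log2 scale. The 4 Pcyt2+/- points of Itih4 lie between 8.609 and 8.781, above both wild type points, while Orm2, Lcn2 and Apcs lie almost flat near 4.3 to 4.5.

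Of the heavy chain genes, Itih4 was the one whose groups stood apart. Its log2 signal was 8.781, 8.633, 8.648 and 8.609 in Pcyt2+/- mice 1 to 4, and 8.512 and 8.320 in wild type mice 3 and 4. Every Pcyt2+/- mouse was above both wild type mice, and the wild type mice differed from each other by more than Pcyt2+/- mice 2, 3 and 4 did among themselves. Group means of 8.67 ± 0.077 (SD, n = 4) and 8.42 ± 0.135 (SD, n = 2) differed by 0.25 ± 0.064 (SE), a 1.19-fold higher signal with a 95% interval of 0.10 to 0.40 on the log2 scale. The adjusted p by limma was 0.662. Without wild type mouse 4, the lowest of all, the difference was 0.16, and without wild type mouse 3 it was 0.35. Ranges that did not overlap, with Pcyt2+/- above, were found for 2 of the 9 genes, Itih4 and Orm2, against 5.67% of all genes. Orm2 was dim, and of the 6 genes with a mean above 5 it was 1, Itih4, against 5.56% of all genes of that brightness. Of the 792 genes with a mean above 5, 23, Itih4 among them, had a difference at least as high as that of Itih4. In bulk liver, a change in the share of a cell type and a change in RNA per cell cannot be told apart.

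Itih2 encodes heavy chain 2, which is joined with heavy chain 1 to bikunin in inter-alpha-inhibitor. Its values were 7.771, 7.936, 7.750 and 7.715 in Pcyt2+/- mice 1 to 4, and 7.761 and 7.595 in wild type mice 3 and 4. Pcyt2+/- mouse 2 was the highest and wild type mouse 4 the lowest, and the remaining 4 values lay close together across both groups. The difference of 0.11 had a 95% interval of -0.049 to 0.28 and came to 0.032 without wild type mouse 4.

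Itih1 and Itih3, which encode heavy chains 1 and 3, had no difference larger than the spread between mice. Itih1 was 5.360, 5.353, 5.228 and 5.277 in the Pcyt2+/- mice and 5.424 and 5.291 in the wild type mice. The highest value belonged to wild type mouse 3 and the ranges overlapped, with a difference of -0.053 (95% interval -0.17 to 0.063) that had the other sign, 0.013, without that mouse. Itih3 was 5.894, 5.835, 5.739 and 5.704 in the Pcyt2+/- mice and 5.819 and 5.812 in the wild type mice. Both wild type values lay inside the Pcyt2+/- range, 2 mice above and 2 below, and the difference of -0.023 (95% interval -0.14 to 0.098) was 0.021 after quantile normalization. Whether Itih3 differed from Itih4, its neighbour, was not tested.

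**Figure D2:**
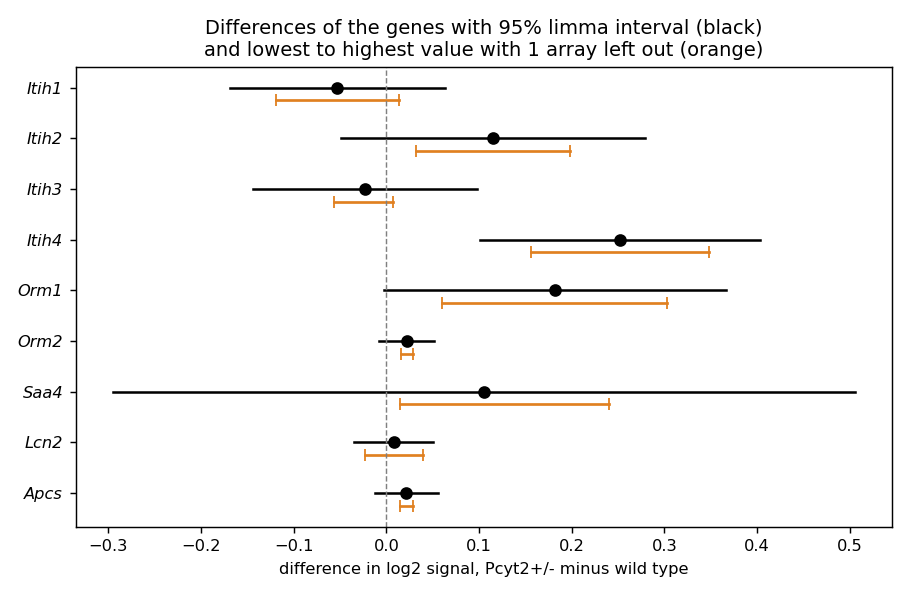
Difference in log2 signal, Pcyt2+/- minus wild type, for each gene, with the 95% interval of limma in black and, in orange, the lowest to highest difference when 1 array at a time was left out. The interval of Itih4 runs from 0.10 to 0.40 and is the only 1 of the 9 that leaves out 0; those of Itih1, Itih3 and Lcn2 cross 0 in both ways of looking.

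The orosomucoids are lipocalins that carry small molecules in plasma, encoded in mice by Orm1, Orm3 and Orm2 on chromosome 4. Orm1 had log2 signals of 6.766, 6.860, 6.656 and 6.831 in Pcyt2+/- mice 1 to 4, and 6.476 and 6.718 in wild type mice 3 and 4. Wild type mouse 3 was the lowest, and 3 of the 4 Pcyt2+/- mice were above both wild type mice, while Pcyt2+/- mouse 3 lay between them. The difference was 0.18 with a 95% interval of -0.0025 to 0.37 (adjusted p = 0.936 by limma), and 0.061 without wild type mouse 3. Orm2 had 4.285, 4.322, 4.302 and 4.308 against 4.284 and 4.280, all below the array median. Its groups did not overlap, but the whole span of the 6 values was 0.04, and Pcyt2+/- mouse 1 differed from wild type mouse 3 in the third decimal. Orm3 was at the same low end, with a mean of 4.44 ± 0.021 (SD, n = 4) against 4.42 ± 0.010 (SD, n = 2). The 3 genes are close copies, so their probe sets may share targets, which was not tested.

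Saa4 encodes the constitutive serum amyloid A, a protein of high density lipoprotein, and it varied most among the 9 genes. Its values were 5.086, 5.629, 5.480 and 5.761 in Pcyt2+/- mice 1 to 4, and 5.357 and 5.410 in wild type mice 3 and 4. Both the highest and the lowest value belonged to the Pcyt2+/- group, with an SD of 0.292 (n = 4) against 0.037 (n = 2) in wild type. The difference of 0.11 had a 95% interval of -0.30 to 0.51, and it ran from 0.015 without Pcyt2+/- mouse 4 to 0.24 without Pcyt2+/- mouse 1. Pcyt2+/- mouse 1, the lowest for Saa4, was the highest for Itih4, so these genes did not share an order of mice. Saa2 and Saa3, inducible forms of serum amyloid A, stayed at the low end, with means of 4.27 ± 0.044 and 4.41 ± 0.033 (SD, n = 4) against 4.25 ± 0.0041 and 4.43 ± 0.0035 (SD, n = 2). Saa2 and Saa3 had adjusted p of 0.995 and 0.994 by limma.

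Lcn2 and Apcs gave signals in the low band of the array in every mouse. Lcn2, lipocalin 2, binds bacterial siderophores and is an inducible protein of hepatocytes and neutrophils. It had 4.336, 4.350, 4.342 and 4.329 in the Pcyt2+/- mice, inside the wild type values of 4.362 and 4.300. All 6 lay below the array median, and the difference of 0.0081 (95% interval -0.034 to 0.051) was -0.023 without wild type mouse 4. Apcs, serum amyloid P component, is a pentraxin and a major acute phase protein of the mouse. It had 4.449, 4.469, 4.482 and 4.438 against 4.441 and 4.435, with Pcyt2+/- mouse 4 between the wild type mice. Its difference was 0.022 (95% interval -0.013 to 0.056), and it was 0.60 once the array median was subtracted on the linear scale (adjusted p = 0.906 by limma). Of 9 measured neutrophil markers, 0 had a mean above 5, and their summed linear signal was 182 to 185 in Pcyt2+/- and 183 to 184 in wild type.

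**Figure D3:**
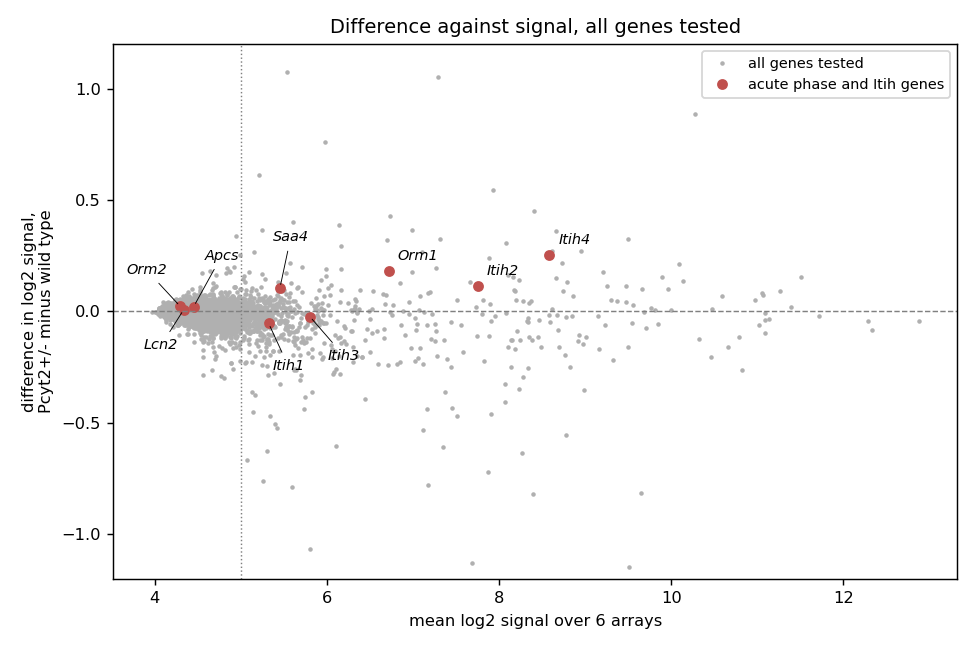
Difference in log2 signal (Pcyt2+/- minus wild type) against the mean log2 signal over 6 arrays for all 18820 genes in grey and the 9 genes in red; the dotted line marks a mean of 5, and 1 gene lies outside the vertical axis. Orm2, Lcn2 and Apcs stand in the dense low band, and Itih4, Orm1, Itih2 and Saa4 stand above 0 among the brighter genes.

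By mouse, Pcyt2+/- mouse 2 was above the gene's mean over all arrays for 9 of the 9 genes and had the highest value for 3 of them. Wild type mouse 4 was above that mean for 2 of the 9 and had the lowest value for 5. The other mice were above it for 4 or 5 genes. Among the 6 genes with a mean above 5, Pcyt2+/- mouse 2 had the highest value for 2 and wild type mouse 4 the lowest for 2. Over these 6 genes the median departure from the gene's mean was -0.0374 in wild type mouse 4. It was -0.033 in wild type mouse 3, -0.0329 in Pcyt2+/- mouse 3 and 0.0957 in Pcyt2+/- mouse 2. The 2 genes with the widest range over the arrays were Saa4 (0.67) and Itih4 (0.46). Among 791 other genes with a mean above 5, the centred values most like those of Itih4 over the 6 arrays were those of Gamt, Cyp1a2 and Coq8a, with root mean square differences of 0.068, 0.074 and 0.077. For Saa4 they were Errfi1, Apoa4 and Mup6, with root mean square differences of 0.154, 0.157 and 0.157, so no gene followed Saa4 closely.

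The other acute phase genes were read from lists. Of 20 measured positive acute phase genes, which are those whose plasma proteins increase in inflammation, limma called 0. The mean was higher in Pcyt2+/- for 13 of the 20, against 48.1% of all genes, and their median difference was 0.0049. Of the 12 with a mean above 5, 7 were higher, against 37.6% of the 792 genes of that brightness, with a median of 0.018. The fibrinogen genes Fga, Fgb and Fgg, for the chains of the clotting protein, had differences of 0.072, 0.030 and 0.15. Fga was 5.13 ± 0.035 (SD, n = 4) against 5.05 ± 0.054 (SD, n = 2) with every Pcyt2+/- mouse above both wild type mice, a side on which 1 of the 20 genes stood apart against 5.67% of all genes. It was also the 1 of 20 with an unadjusted p under 0.05 (adjusted p = 0.913 by limma), against 5.3% of all genes, and its difference was 0.034 without wild type mouse 3. These Fga values are from the brighter of its 2 probe sets. The other probe set had a difference of 0.0227, and the mean of a gene's rows gave 0.0474 for Fga. Fgg came to 0.029 without wild type mouse 3. Hpx, the heme carrier hemopexin, had a difference of 0.11 (95% interval -0.0087 to 0.23), and 0.040 without the same mouse. Hp, haptoglobin, which binds free hemoglobin, was on the other side with -0.16 (95% interval -0.40 to 0.077), which was -0.038 without wild type mouse 4 and -0.29 without wild type mouse 3. The 20 genes thus lay on both sides of 0, from -0.82 to 0.43.

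Negative acute phase genes, whose plasma proteins decrease in inflammation, had a median of -0.025 over 9 measured genes, with 4 higher, 5 lower and 0 called by limma. At an unadjusted p under 0.05 was 1 of the 9, Rbp4, against 5.3% of all genes. All 9 had a mean above 5, and of the 792 genes of that brightness 116 were lower and 44 higher at that unadjusted p. Rbp4, which carries retinol, was 10.795, 10.785, 10.605 and 10.738 in the Pcyt2+/- mice and 10.986 and 11.000 in the wild type mice. Every Pcyt2+/- mouse was below both wild type mice, with a difference of -0.26 (95% interval -0.38 to -0.14; adjusted p = 0.511 by limma), and -0.22 to -0.28 with any 1 array left out. Alb, albumin, and Ttr, transthyretin, had overlapping groups and differences of -0.042 and -0.060, which were 0.050 and 0.087 without wild type mouse 3. Non-overlapping ranges with Pcyt2+/- below were found for 1 of these 9 genes, against 7.17% of all genes and 15.3% of those with a mean above 5.

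**Figure D4:**
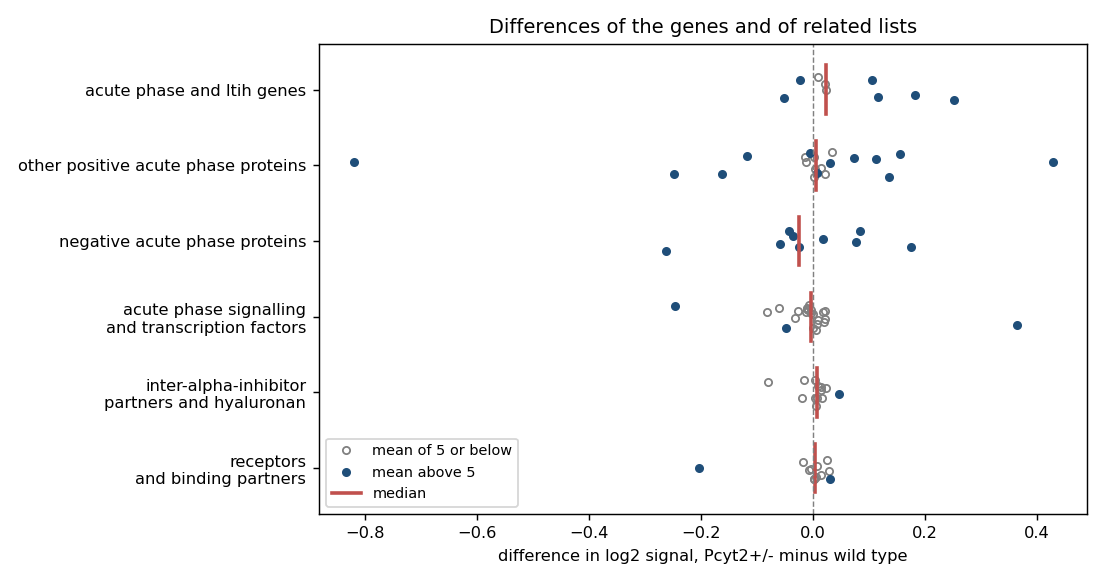
Difference in log2 signal, Pcyt2+/- minus wild type, of each measured gene of the set and of 5 related lists; filled points have a mean above 5, open points do not, and the red bar is the median of the list. The medians lie between -0.025 and 0.022, and the 9 genes described here hold the highest of them.

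Genes of cytokine signalling and of the transcription factors that act on acute phase genes were mostly dim, with 3 of 23 measured above 5. Limma called 0 of the 23, 8 had a higher mean, against 48.1% of all genes, and 15 a lower one, and the median was -0.0049. At an unadjusted p under 0.05 were 1 higher gene, Lifr, and 2 lower ones, Nfkbia and Cebpa, or 3 of 23 against 5.3% of all genes. Il6ra and Il6st, the chains of the interleukin-6 receptor, had differences of -0.032 and -0.011, and Stat3 had -0.0049. Il6ra had -0.0034 without wild type mouse 3. Il6st and Stat3 had the other sign after quantile normalization (0.00071 and 0.0058). Socs3, the feedback inhibitor induced by STAT3, had 0.021 in the brighter of its 2 probe sets and -0.016 in the other, and Cebpb and Cebpd, which bind C/EBP sites, had -0.011 and 0.021, with 0.00035 for Cebpb after quantile normalization. Hnf4a, a hepatocyte nuclear receptor, had -0.25 with 7.896 in wild type mouse 4 against 7.274 to 7.487 in the other mice, and 0.038 without that mouse.

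Lifr, the receptor chain for leukemia inhibitory factor, a cytokine of the interleukin-6 family, had the largest positive difference of this list. Its values were 5.416, 5.416, 5.377 and 5.242 in the Pcyt2+/- mice and 4.906 and 5.092 in the wild type mice. Every Pcyt2+/- mouse was above both wild type mice, with a difference of 0.36 (95% interval 0.21 to 0.52; adjusted p = 0.451 by limma). It stayed between 0.27 and 0.46 with any 1 array left out. Nfkbia, the inhibitor that holds NF-kB in the cytoplasm, had -0.061, and Cebpa, the C/EBP factor of resting hepatocytes, had -0.082. Both had all Pcyt2+/- mice below both wild type mice, as 7.17% of all genes did, where 5.67% stood apart on the higher side as Lifr did. Both had adjusted p over 0.05 by limma (0.662 and 0.897).

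Partners of the heavy chains showed no called gene. Ambp, for bikunin, was 9.39 ± 0.056 (SD, n = 4) against 9.34 ± 0.063 (SD, n = 2), which differ by 0.046 (95% interval -0.048 to 0.14) that came to 0.00098 without wild type mouse 4. The difference of Ambp was thus smaller than that of Itih4, a contrast that was not tested. Over 13 measured genes of this list and of hyaluronan, 10 had a higher mean, against 48.1% of all genes, and 3 a lower one. Of the 13, only 1, Ambp, had a mean above 5, and 0 differed by more than 0.1. Limma called 0 of the 13, and the median was 0.0059. Bmp1 was the 1 of 13 at an unadjusted p under 0.05, against 5.3% of all genes. Bmp1, a procollagen proteinase, was 4.93 ± 0.015 (SD, n = 4) against 5.01 ± 0.024 (SD, n = 2) with an adjusted p of 0.487 by limma. Of 12 measured receptors and binding partners of the acute phase proteins, limma called 0, and 0 had an unadjusted p under 0.05. By group means 8 of the 12 were higher, against 48.1% of all genes, and 4 lower, with a median of 0.0028. Only 2 of the 12 had a mean above 5, and of these 1 was higher and 1 lower. Abca1, the lipid exporter for which serum amyloid A can act as an acceptor, had 0.028, and Apoa2, an apolipoprotein of the same particles, had -0.20, which was 0.0020 without wild type mouse 3.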

How the data were processed

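Liver RNA of 6 mice was hybridised to Affymetrix arrays, from 100 ng of total RNA per the labels' protocols. The authors deposited log2 signals per probe set, and the submitters' processing notes name RMA as the method. Its version and a genome build are not given in the sources used here. Of 28996 probe sets, 21218 had 1 gene symbol in the platform annotation, 1881 had several and 5897 were unnamed here. The row with the highest mean over 6 arrays stood for a gene, which gave 18820 genes. Most genes lay near a floor in the deposited signals, where differences may be understated, and precision is limited by how many arrays there are.

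Groups were compared with limma 3.58.1 (R 4.3.3; lmFit, eBayes, two-sided, no covariates), and p-values were adjusted by Benjamini-Hochberg over 18820 genes, with 0.05 as the threshold. The fit was tested on simulated data. Other steps used Python 3.11.15 with numpy 2.4.6 and pandas 2.3.3. The 9 genes and the lists were chosen with earlier results of these data known.

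From the lists the text names genes with an unadjusted p under 0.05, at most 4 a list or otherwise the 2 with the smallest p, and a fixed set of 18. Promoters are RefSeq's, of GRCm38.p6. Other settings were a dim gene filter (mean above 5), all rows tested, rows of a gene averaged, quantile normalization, the array median subtracted on the log2 or the linear scale, a trended and robust prior, array weights, each array left out in turn, and a replicate block.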

Additional observations from a re-analysis of the deposited data

Results flagged for a closer look

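Hp, haptoglobin, had a value of 6.815 in Pcyt2+/- mouse 2, far below the 7.091 to 7.112 of the other Pcyt2+/- mice (a gap of 0.928 of the group's range, above Dixon's critical value). It was the 1 of 37 genes checked to stand out in this way, and chance marks about 1 gene in 20. Pcyt2+/- mouse 2 had the highest value for 3 of the 9 genes described here, and for 2 of the 6 with a mean above 5.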

How the results depend on the processing

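The adjusted p of the 9 genes lay between 0.258 and 0.999 in all 130 refits of single genes, 0 of them were called under any setting, and 126 of the 130 kept the sign of the difference. The exceptions were Itih3 after quantile normalization (0.0209), and with 1 array left out Itih3 (-0.0565 to 0.00667), Itih1 (-0.119 to 0.0134) and Lcn2 (-0.0232 to 0.0393). The number of all genes called, 0, was 3 with the dim gene filter, which tests fewer genes, 9 with the trended and robust prior, 2 with the replicate block, and 0 to 9 with 1 array left out. The cause of these counts was not tested. The median difference of the 9 genes, 0.022, was 0.11 with the dim gene filter, over 6 genes. It was 0.162 with the array median subtracted on the linear scale, over 7 genes. With 1 array left out it ran from 0.0187 to 0.0393. Pcyt2 was lower under every setting run, with differences of -0.245 to -0.154 with 1 array left out. Its difference was -0.974 with the array median subtracted on the linear scale, and the dim gene filter gave no value for it. Other genes with a turned sign were Il6st (0.000712), Stat3 (0.00576) and Cebpb (0.000346) after quantile normalization and Saa3 (0.00928) with the replicate block. With 1 array left out they were Saa3 (-0.022 to 0.00277), Saa2 (-0.00163 to 0.028), Fgb (-0.000326 to 0.0605), Apoa2 (-0.41 to 0.00195), Alb (-0.135 to 0.0503), Ttr (-0.206 to 0.0869), Stat3 (-0.0303 to 0.0205), Socs3 (-0.0103 to 0.0522) and Hnf4a (-0.533 to 0.0381). Fits without 1 of the wild type arrays leave 1, which is assumed to vary like the Pcyt2+/- arrays. The groups share the numbers 3 and 4 in the labels, which name separate mice. Deviations of same-numbered arrays correlated at 0.15 and 0.07 over genes, and those of Pcyt2+/- mouse 1 and wild type mouse 4 at 0.19. With 2 wild type arrays the deviations of 1 mirror those of the other, so these values cannot show whether mice were paired. The block rests on a number only, and under it Itih4 differed by 0.213 (adjusted p = 0.743 by limma). Signal near the floor limits what Orm2, Lcn2 and Apcs can show.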

Other observations

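Hamp and Lrg1 held the outer ends of the acute phase list and were named after their values were seen. Hamp encodes hepcidin, the hormone that lowers iron export, and had 8.590, 9.119, 6.598 and 8.186 in Pcyt2+/- mice 1 to 4 and 8.539 and 9.348 in wild type mice 3 and 4. Pcyt2+/- mouse 3 lay far below the other mice, and the difference of -0.82 (95% interval -2.37 to 0.73) was -0.31 without that mouse. Lrg1, a leucine-rich glycoprotein of plasma, had 6.961, 6.491, 6.666 and 7.360 in the Pcyt2+/- mice and 6.383 and 6.502 in the wild type mice. Its difference was 0.43 (95% interval -0.096 to 0.95), with 3 of 4 Pcyt2+/- mice above both wild type mice, and it was 0.26 without Pcyt2+/- mouse 4. Neither gene passed limma (adjusted p of 0.956 and 0.945).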
